A study of Mus musculus with 18 samples.

Results

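The difference in the ovarian response to PMSG between Pik3cd-/- and Pik3cd+/- mice was described gene by gene from 12 of the 18 Affymetrix arrays of the study. The 4 groups of 3 arrays were Pik3cd-/- ovaries 44 hours after PMSG, untreated Pik3cd-/- ovaries, Pik3cd+/- ovaries 44 hours after PMSG and untreated Pik3cd+/- ovaries. All were whole ovaries of 21-day-old females on a C57B6J/S129 background, and the PMSG groups had received 10 IU per mouse in 1 intraperitoneal injection. Heterozygotes served as controls, so every animal lacked at least 1 copy of Pik3cd, and the labels name no cell type for the deletion. The untreated mice had no vehicle injection, so injection and elapsed time are part of the response to PMSG in each genotype. The measure was the interaction, which is PMSG minus untreated in Pik3cd-/- less PMSG minus untreated in Pik3cd+/-, on the scale of log2(signal + 8.58). A positive interaction means that the step from untreated to PMSG lay higher in Pik3cd-/- ovaries than in Pik3cd+/- ovaries, and a negative one that it lay lower.

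PMSG, a gonadotropin from pregnant mares, acts in rodents mainly as FSH does: it makes antral follicles grow, drives granulosa cell division and prepares the follicle for ovulation. The product of Pik3cd, p110 delta, is one of the catalytic subunits of phosphoinositide 3-kinase (PI3K) and is best known from leukocytes. PI3K signals through AKT, which phosphorylates FoxO transcription factors and keeps them out of the nucleus, where they would otherwise switch on cell cycle inhibitors and stress genes.

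The 12 arrays had median signals between 48.4 and 50.9 intensity units, within the narrow range of all 18, and the mean correlation of each array with its group mates was between 0.979 and 0.993. Of the 6 Pik3cd probe sets, 2 separated the genotypes on all arrays. The brighter of these gave signals of 20.4, 23.6 and 26.4 in Pik3cd-/- ovaries after PMSG and 28.8, 23.8 and 25.98 in untreated Pik3cd-/- ovaries, against 69.8, 67.6 and 71.7 in Pik3cd+/- ovaries after PMSG and 70.03, 69.8 and 61.4 in untreated Pik3cd+/- ovaries. The interaction of that probe set was -0.17. The dimmer gave 13.5, 13.3 and 14.0 in Pik3cd-/- ovaries after PMSG and 13.5, 12.3 and 14.1 in untreated Pik3cd-/- ovaries, against 18.2, 21.2 and 23.1 in Pik3cd+/- ovaries after PMSG and 26.7, 21.1 and 19.4 in untreated Pik3cd+/- ovaries. The brightest Pik3cd probe set gave 3157, 3264 and 2958 in Pik3cd-/- ovaries after PMSG and 3945, 3423 and 3456 in untreated Pik3cd-/- ovaries, against 3403, 4833 and 3679.96 in Pik3cd+/- ovaries after PMSG and 3064, 2658 and 3622 in untreated Pik3cd+/- ovaries (interaction -0.55). It was lower in Pik3cd-/- than in Pik3cd+/- ovaries after PMSG and overlapped between the genotypes in untreated ovaries. Whether these probe sets lie in the deleted part was not tested. Oocyte genes, which mark the labelled tissue, were present on every array, with list means between 8.99 and 10.66 on the log2 scale.

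No gene passed the test of the interaction. Of 12711 genes tested with limma, 0 (0%) had an adjusted p under 0.05 after Benjamini-Hochberg adjustment over all genes, and the smallest adjusted p, shared by Ddhd1 and Asb4, was 0.0711. At an unadjusted p under 0.05 there were 1195 genes (9.4%), 783 with a positive interaction (6.16%) and 412 with a negative one (3.24%). The ranks and gene groups that follow are therefore a description of an ordering in which no single gene is called. The standard error of the interaction had a median of 0.16 over all genes, against a standard deviation of 0.27 of the interactions themselves, and interactions between -0.41 and 0.41 covered the range from the 5th to the 95th percentile. The median over all genes was 0.04, and 57.7% of genes lay above 0. Large interactions were more often negative: 70 genes had -1 or less and 26 had 1 or more, of which 41 and 15 had an unadjusted p under 0.05.

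**Figure D1:**
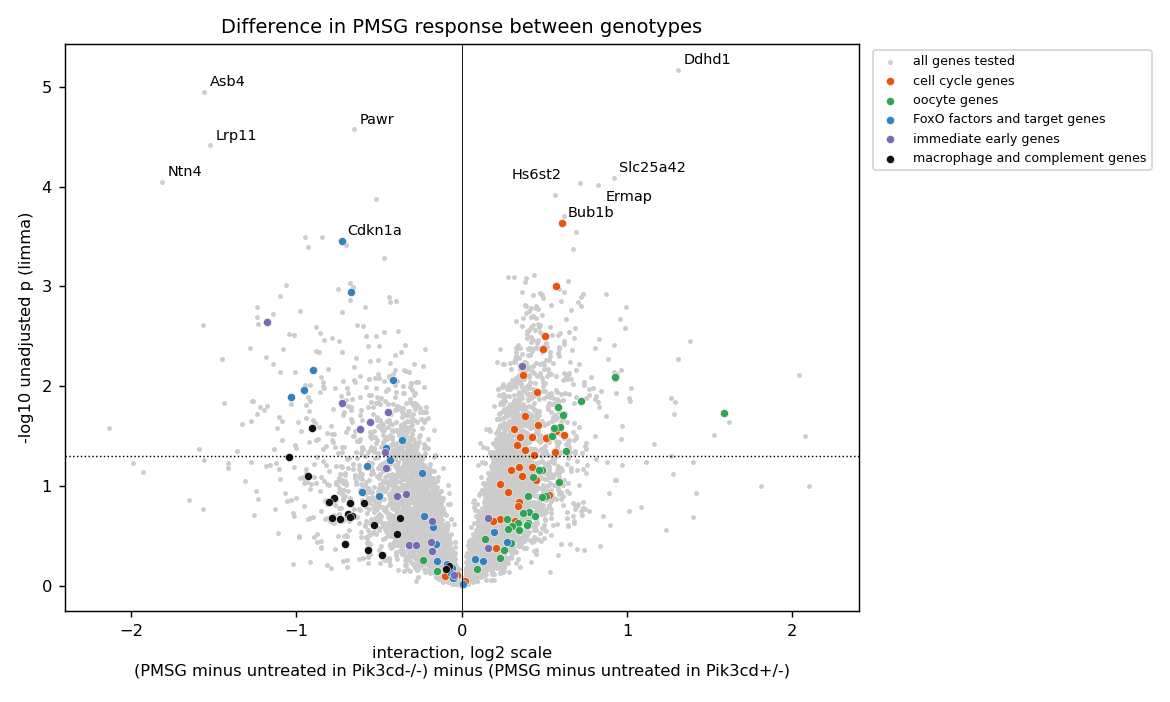
Each point is 1 of 12711 genes, with the interaction on the log2 scale on the x axis and -log10 of the unadjusted limma p-value on the y axis. The dotted line marks the unadjusted threshold of 0.05 and colours mark 5 gene lists. Ddhd1 at 1.31 and Asb4 at -1.56 stand highest, cell cycle and oocyte genes lie mostly right of 0, and FoxO, immediate early and macrophage genes lie mostly left of it.

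Among the 783 genes with a positive interaction at an unadjusted p under 0.05, the estimated response was above 0 in Pik3cd-/- and below 0 in Pik3cd+/- for 449 (57.3%), and below 0 in both for 289 (36.9%). Among the 412 with a negative interaction, 261 (63.3%) had a response below 0 in Pik3cd-/- and above 0 in Pik3cd+/-. The interaction was built from both states: genes of the positive set had a median genotype difference (Pik3cd-/- minus Pik3cd+/-) of 0.14 after PMSG and -0.22 untreated, and genes of the negative set -0.24 after PMSG and 0.21 untreated. These shares and medians are fixed in part by the selection and only describe how the selected interactions were composed.

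Ddhd1, which encodes a phospholipase acting on phosphatidic acid, ranked first. Its signals were 268, 352 and 332 in Pik3cd-/- ovaries after PMSG and 311, 239 and 262 in untreated Pik3cd-/- ovaries, against 185, 221 and 261 in Pik3cd+/- ovaries after PMSG and 463, 473 and 498 in untreated Pik3cd+/- ovaries. The 2 Pik3cd-/- groups overlapped, while all Pik3cd+/- arrays after PMSG lay under the untreated ones. The interaction was 1.31 ± 0.20 (SE, n = 3 arrays per group; limma adjusted p = 0.0711), and all 4 bright probe sets of Ddhd1 had a positive interaction, the lowest 0.35. Slc25a42, the mitochondrial carrier of coenzyme A, showed the same arrangement. It gave 132, 139 and 130.4 in Pik3cd-/- ovaries after PMSG and 133, 124 and 167 in untreated Pik3cd-/- ovaries, against 137, 112 and 122 in Pik3cd+/- ovaries after PMSG and 262, 243 and 253 in untreated Pik3cd+/- ovaries (interaction 0.92 ± 0.17, limma adjusted p = 0.152). For this gene the untreated Pik3cd+/- arrays were the only ones that stood apart from the rest.

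Hs6st2, a sulfotransferase of heparan sulfate, differed in that the genotypes overlapped before treatment. Its signals were 773, 876 and 917 in Pik3cd-/- ovaries after PMSG and 1251, 1114 and 1292 in untreated Pik3cd-/- ovaries, against 508, 485 and 596 in Pik3cd+/- ovaries after PMSG and 1276, 1326 and 1138 in untreated Pik3cd+/- ovaries. Arrays after PMSG were below the untreated ones in both genotypes, and lower in Pik3cd+/- than in Pik3cd-/- (interaction 0.71 ± 0.14, limma adjusted p = 0.152). Ermap, named for an erythroblast membrane protein, was dim and passed the filter on dim genes only through untreated Pik3cd+/- ovaries. It gave 48.6, 46.3 and 40.5 in Pik3cd-/- ovaries after PMSG and 38.5, 37.8 and 36.0 in untreated Pik3cd-/- ovaries, against 36.8, 40.8 and 40.9 in Pik3cd+/- ovaries after PMSG and 65.5, 73.9 and 55.2 in untreated Pik3cd+/- ovaries (interaction 0.83 ± 0.16, limma adjusted p = 0.152). The other 3 groups lay under the filter's level, so no order is read among them, and with a pseudocount of 64 the interaction was 0.42.

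The other 8 of the 12 positive genes with the smallest p had interactions between 0.28 and 0.69 and adjusted p between 0.17 and 0.348. They were Septin11, a cytoskeletal GTP-binding protein, at 0.56, Gprasp1, a sorting protein of G protein-coupled receptors, at 0.62, the spindle checkpoint kinase gene Bub1b at 0.61, the nuclear lamin gene Lmnb1 at 0.69, the imprinted gene Mest at 0.67, the chromatin repressor genes Gatad2a at 0.44 and Trim28 at 0.32, and the ATP synthase subunit gene Atp5g3 at 0.28. Gatad2a had 2 of 4 bright probe sets with a negative interaction, and its value was -0.35 where the probe set with the highest variance stood for the gene. Septin11 had 1 of 4 below 0, and 0.19 for the probe set with the highest variance.

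Asb4, whose product is a substrate adaptor of a ubiquitin ligase, led the negative side. Its signals were 114, 76.0 and 99.8 in Pik3cd-/- ovaries after PMSG and 107, 107 and 85.1 in untreated Pik3cd-/- ovaries, against 587, 414 and 348 in Pik3cd+/- ovaries after PMSG and 125, 176 and 151 in untreated Pik3cd+/- ovaries. High signals were found on the 3 Pik3cd+/- arrays after PMSG, and the Pik3cd-/- groups overlapped (interaction -1.56 ± 0.25, limma adjusted p = 0.0711). Lrp11, a member of the lipoprotein receptor family, gave 275, 241 and 261 in Pik3cd-/- ovaries after PMSG and 213, 230.3 and 237 in untreated Pik3cd-/- ovaries, against 402, 518 and 762 in Pik3cd+/- ovaries after PMSG and 172, 156 and 154 in untreated Pik3cd+/- ovaries. It too was highest in Pik3cd+/- after PMSG, and it was lowest in untreated Pik3cd+/- ovaries (interaction -1.52 ± 0.27, limma adjusted p = 0.121).

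Pawr, which encodes the pro-apoptotic protein Par-4, was also highest in Pik3cd+/- ovaries after PMSG, at a brighter level. It gave 1141, 1058 and 1233 in Pik3cd-/- ovaries after PMSG and 1209, 1165 and 1087 in untreated Pik3cd-/- ovaries, against 1613, 1642 and 1409 in Pik3cd+/- ovaries after PMSG and 925, 973 and 1089 in untreated Pik3cd+/- ovaries (interaction -0.65 ± 0.11, limma adjusted p = 0.112). Ntn4, a laminin-related netrin of basement membranes, had the most negative interaction of the 12, though the other of its 2 bright probe sets gave -0.60. Its signals were 401, 282 and 225 in Pik3cd-/- ovaries after PMSG and 454, 642 and 523 in untreated Pik3cd-/- ovaries, against 945, 966 and 430.1 in Pik3cd+/- ovaries after PMSG and 357, 394 and 359 in untreated Pik3cd+/- ovaries. PMSG arrays lay below the untreated ones in Pik3cd-/- and above them in Pik3cd+/-, where the third array was far lower than the other two (interaction -1.81 ± 0.35, limma adjusted p = 0.152). Without that array the interaction was -2.19 with a limma adjusted p of 0.00236, and Asb4, Ddhd1 and Pawr also had an adjusted p under 0.05. Over all alternatives the limma adjusted p of Ntn4 ran from 0.00236 to 0.543, that of Asb4 from 0.0141 to 0.316, that of Ddhd1 from 0.0141 to 0.276 and that of Pawr from 0.0265 to 0.504.

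The other negative genes among the 12 had interactions between -0.95 and -0.47. Vegfc, a growth factor for lymphatic vessels, had -0.95, Pkp2, a desmosomal plaque protein, -0.93, Acss2, which makes acetyl-CoA from acetate, -0.84, and the cyclin-dependent kinase inhibitor gene Cdkn1a -0.72. Cgref1 had -0.70, Commd10 -0.67, the translational regulator gene Impact -0.52 and Cpe, which encodes a carboxypeptidase of peptide hormone processing, -0.47. Cgref1 passed the filter on dim genes only through Pik3cd+/- ovaries after PMSG, and its probe set with the highest variance gave -0.067. Their limma adjusted p lay between 0.17 and 0.348. For Pkp2, the signals were 426, 440.4 and 513 in Pik3cd-/- ovaries after PMSG and 363, 342 and 382 in untreated Pik3cd-/- ovaries, against 890.0, 693 and 822 in Pik3cd+/- ovaries after PMSG and 379.6, 374 and 248 in untreated Pik3cd+/- ovaries. PMSG arrays were above the untreated ones in both genotypes, with the wider gap in Pik3cd+/-. Of the 12 positive and 12 negative genes, 15 had more than 1 bright probe set, and in 13 of these all probe sets had the same sign.

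**Figure D2:**
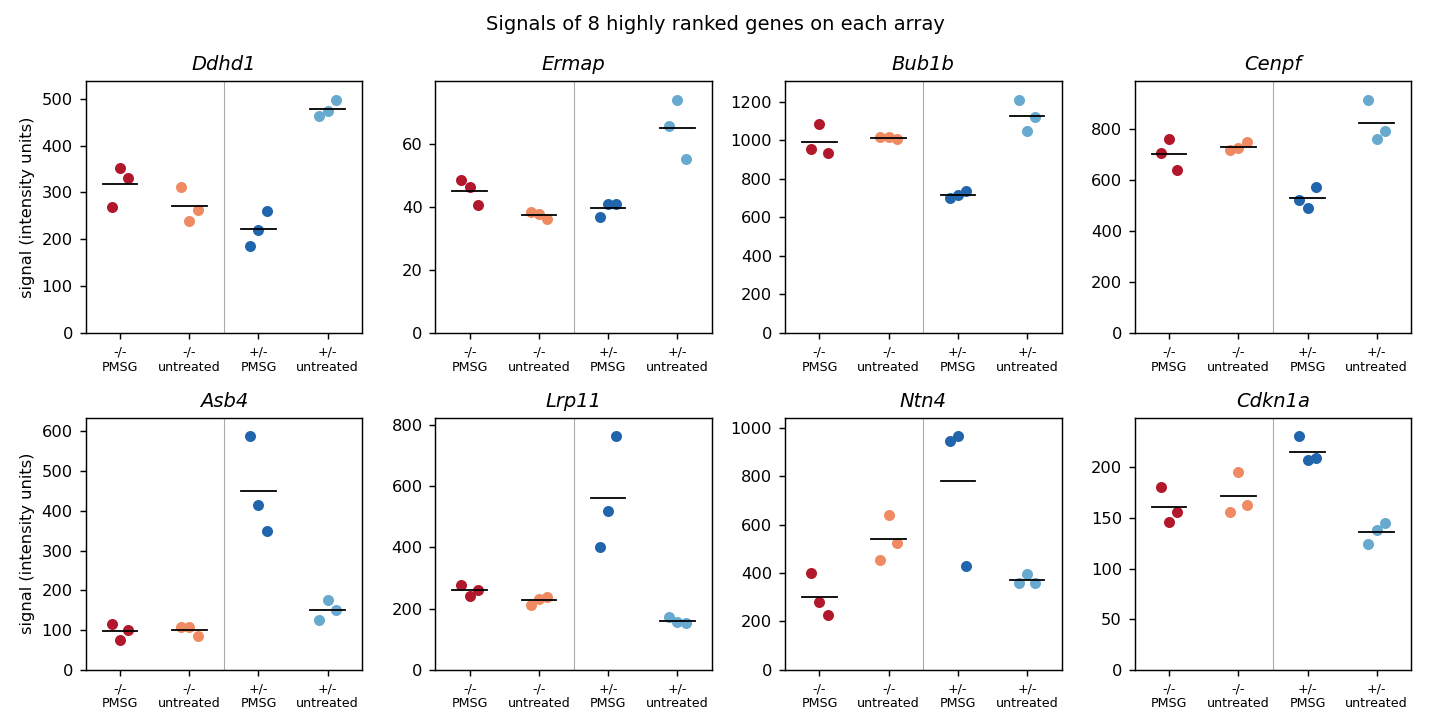
Signals in intensity units on a linear axis from 0, with 1 point per array, a bar at the mean of 3 arrays, and the groups in the order Pik3cd-/- after PMSG, Pik3cd-/- untreated, Pik3cd+/- after PMSG and Pik3cd+/- untreated. Asb4 and Lrp11 are highest on the 3 Pik3cd+/- arrays after PMSG, and Ddhd1 and Ermap on the 3 untreated Pik3cd+/- arrays.

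The largest interactions came with large errors. Akr1c13, an aldo-keto reductase, had 2.08 ± 0.88, from 66.5, 66.3 and 296 in Pik3cd-/- ovaries after PMSG and 373, 94.3 and 78.7 in untreated Pik3cd-/- ovaries, against 84.0, 47.0 and 69.5 in Pik3cd+/- ovaries after PMSG and 244, 440.2 and 525 in untreated Pik3cd+/- ovaries. Ang, which encodes angiogenin, had -2.13 ± 0.87, and 1 of its untreated Pik3cd+/- arrays read 25.8 where the other two read 225 and 222. In both genes single arrays lay several fold from their group mates. B4galt6 (1.62), the oocyte gene Nlrp4e (1.58), the amino acid transporter gene Slc38a5 (1.53), Cntn4 (1.38), Pcp4 (-1.59) and the protease inhibitor gene Mug1 (-1.56) completed the largest that also had an unadjusted p under 0.05 and were not named above, with limma adjusted p between 0.359 and 0.514. Mug1 passed the filter on dim genes only through Pik3cd+/- ovaries after PMSG, with 18.9, 30.3 and 45.7 in Pik3cd-/- ovaries after PMSG and 12.5, 15.5 and 25.6 in untreated Pik3cd-/- ovaries, against 86.4, 111 and 97.5 in Pik3cd+/- ovaries after PMSG and 15.6, 17.9 and 13.2 in untreated Pik3cd+/- ovaries. With a pseudocount of 64 the interaction was -0.81 for Mug1, 0.81 for Cntn4 and -0.85 for Pcp4. Single arrays moved others of these values: Slc38a5 had 0.87 without the second untreated Pik3cd-/- array and Ang had -1.21 without the third untreated Pik3cd+/- array.

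Gene groups were described by counts and medians, with no set test. Cell cycle genes, those of DNA replication and mitosis, lay most uniformly on the positive side. Of 36 tested, 0 had an adjusted p under 0.05, 19 (52.8%) had a positive interaction at an unadjusted p under 0.05 against 6.16% of all genes, none had a negative one, and 34 were above 0. The median interaction was 0.38, against 0.04 over all genes. It was made of a median response of -0.05 in Pik3cd-/- and -0.44 in Pik3cd+/-, and of a median genotype difference of 0.00 after PMSG and -0.26 untreated. The median genotype difference was thus away from 0 in the untreated state and not after PMSG. The mean log2 level of the list was 9.38, 9.33 and 9.42 in Pik3cd-/- ovaries after PMSG and 9.41, 9.24 and 9.60 in untreated Pik3cd-/- ovaries, against 9.27, 9.19 and 9.45 in Pik3cd+/- ovaries after PMSG and 9.77, 9.67 and 9.69 in untreated Pik3cd+/- ovaries. All 3 untreated Pik3cd+/- arrays lay above every other array. In whole ovaries, fewer cells of a type and less RNA per cell cannot be told apart.

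Within the list, Bub1b ranked first, with 954, 1083 and 935 in Pik3cd-/- ovaries after PMSG and 1015, 1017 and 1008 in untreated Pik3cd-/- ovaries, against 701, 718 and 736 in Pik3cd+/- ovaries after PMSG and 1209.8, 1048 and 1123 in untreated Pik3cd+/- ovaries (interaction 0.61 ± 0.13, limma adjusted p = 0.244). Cenpf, a kinetochore protein of dividing cells, gave 709, 761 and 641 in Pik3cd-/- ovaries after PMSG and 719.7, 725 and 751 in untreated Pik3cd-/- ovaries, against 522, 492 and 573 in Pik3cd+/- ovaries after PMSG and 916, 762 and 794 in untreated Pik3cd+/- ovaries (interaction 0.57 ± 0.14, limma adjusted p = 0.348, and 0.35 for the probe set with the highest variance). Both had their lowest signals on the 3 Pik3cd+/- arrays after PMSG. The kinetochore motor gene Cenpe had an interaction of 0.50 ± 0.14, the replication helicase gene Mcm4 0.49 ± 0.15, the mitotic transcription factor gene Foxm1 0.37 ± 0.12, the S phase transcription factor gene E2f1 0.38 ± 0.15 and the proliferation marker Mki67 0.62 ± 0.26, with limma adjusted p between 0.359 and 0.488. Members near 0 were the G1 cyclins Ccne1 (-0.03) and Ccne2 (-0.10) and the checkpoint gene Mad2l1 (0.02). Ccnd2, the cyclin that FSH induces in granulosa cells and no member of this list, had 0.59 ± 0.18 (limma adjusted p = 0.359).

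The count of 19 moved with single arrays. It was 7 without the second Pik3cd+/- PMSG array, 8 without the first untreated Pik3cd+/- array, 10 without the first Pik3cd+/- PMSG array, 12 without the first or the third Pik3cd-/- PMSG array or without the first or the second untreated Pik3cd-/- array, and 28 without the third untreated Pik3cd-/- array. Over all genes the positive count of 783 moved too. It was 512 without the second Pik3cd+/- PMSG array, 492 without the first untreated Pik3cd+/- array and 988 without the third untreated Pik3cd-/- array. The median of the list stayed between 0.32 and 0.46 over all 12 arrays left out in turn, and at least 33 members stayed above 0.

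Promoters of the 3 cell cycle genes with the smallest p are shown because most members of the list lay on the same side of 0 and because the CCAAT box is a known element of mitotic gene promoters. The bases are the 250 upstream of the RefSeq start in GRCm38.p6, 5′ to 3′ on the gene's strand: Bub1b at chr2:118597961-118598210 (plus strand), Cenpf at chr1:189688087-189688336 (minus strand) and Cenpe at chr3:135212313-135212562 (plus strand). Capitals mark CCAAT, or its reverse complement ATTGG.
Bub1b: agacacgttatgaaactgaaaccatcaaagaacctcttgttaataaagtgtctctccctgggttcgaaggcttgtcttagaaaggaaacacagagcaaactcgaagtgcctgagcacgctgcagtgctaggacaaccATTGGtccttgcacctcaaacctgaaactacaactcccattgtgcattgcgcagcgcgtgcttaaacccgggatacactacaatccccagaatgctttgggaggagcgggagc
Cenpf: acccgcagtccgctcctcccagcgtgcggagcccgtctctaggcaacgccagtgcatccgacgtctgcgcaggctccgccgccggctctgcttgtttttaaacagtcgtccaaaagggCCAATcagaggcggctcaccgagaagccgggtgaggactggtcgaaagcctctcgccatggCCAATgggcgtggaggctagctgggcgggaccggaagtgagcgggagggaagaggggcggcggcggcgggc
Cenpe: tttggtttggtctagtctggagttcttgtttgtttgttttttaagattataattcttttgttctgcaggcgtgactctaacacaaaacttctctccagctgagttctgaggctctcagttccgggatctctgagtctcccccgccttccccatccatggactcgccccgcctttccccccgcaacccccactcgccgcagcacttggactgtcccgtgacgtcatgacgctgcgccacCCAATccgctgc
RefSeq promoters matched 10253 of the tested genes by symbol, among them 29 cell cycle genes. CCAAT on either strand was found in 22 of these 29 windows (75.9%) and in 36.2% of all 10253. The letters TTTGAA of the cell cycle homology region were found in 7 (24.1%) against 10.3%, and the E2F letters TTTCGCGC in 3 (10.3%) against 0.497%. Each motif was searched on both strands, and overlaps between motifs were not removed. The list was put together by gene function, so these shares describe the list and not the interaction. They are matches of letters in a window and do not show that a factor binds there.

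Oocyte genes also lay on the positive side. Of 33 tested, 0 had an adjusted p under 0.05, 9 (27.3%) had a positive interaction at an unadjusted p under 0.05 against 6.16% of all genes, none had a negative one, and 31 were above 0, where 57.7% of all genes lay, with a median of 0.41. The mean log2 level of the list was 10.04, 10.17 and 10.18 in Pik3cd-/- ovaries after PMSG and 10.41, 10.66 and 10.54 in untreated Pik3cd-/- ovaries, against 8.99, 9.17 and 9.11 in Pik3cd+/- ovaries after PMSG and 9.99, 9.96 and 9.85 in untreated Pik3cd+/- ovaries. No group overlapped another, the PMSG arrays were lower than the untreated ones in each genotype, and the gap between them was wider in Pik3cd+/-.

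Nlrp5, a component of the maternal complex under the egg surface, had 2073, 2777 and 3079 in Pik3cd-/- ovaries after PMSG and 3117, 3517 and 3379.6 in untreated Pik3cd-/- ovaries, against 688, 759.6 and 947 in Pik3cd+/- ovaries after PMSG and 2049, 2002 and 1765 in untreated Pik3cd+/- ovaries (interaction 0.93 ± 0.31, limma adjusted p = 0.401). Ooep, of the same complex, had 0.72 ± 0.26, the zona pellucida gene Zp2 0.58 ± 0.22 and Gdf9, the oocyte growth factor that acts on granulosa cells, 0.61 ± 0.23, with limma adjusted p between 0.419 and 0.44. The early oocyte transcription factor genes Sohlh1 (-0.23) and Figla (-0.15) were the members below 0. The count of 9 was 4 without the first Pik3cd+/- PMSG array, 5 without the second Pik3cd-/- PMSG array, and 21 in a model of the 4 groups only. The median with each array left out lay between 0.35 and 0.48.

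FoxO factors and their target genes lay on the negative side. Of 27 tested, 0 had an adjusted p under 0.05, 8 (29.6%) had a negative interaction at an unadjusted p under 0.05 against 3.24% of all genes, none had a positive one, 22 were below 0, and the median was -0.23. The FoxO genes themselves were near 0, with Foxo1 at 0.13 ± 0.22, Foxo3 at 0.08 ± 0.12 and Foxo4 at -0.18 ± 0.15. The mean log2 level of the list was 8.95, 8.87 and 8.85 in Pik3cd-/- ovaries after PMSG and 8.92, 9.03 and 8.87 in untreated Pik3cd-/- ovaries, against 9.29, 9.21 and 9.10 in Pik3cd+/- ovaries after PMSG and 8.97, 8.99 and 8.88 in untreated Pik3cd+/- ovaries. The 3 Pik3cd+/- arrays after PMSG lay above all others, and the other groups overlapped.

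The 8 members were the kinase inhibitor genes Cdkn1a and Cdkn1b, the growth arrest genes Gadd45a and Gadd45b, the transcriptional coregulator gene Cited2, the insulin signalling genes Insr and Irs2, and Pdk4, an inhibitor of pyruvate dehydrogenase. Cdkn1a had 180.2, 146 and 155 in Pik3cd-/- ovaries after PMSG and 156, 196 and 163 in untreated Pik3cd-/- ovaries, against 231, 207 and 209 in Pik3cd+/- ovaries after PMSG and 125, 138 and 145 in untreated Pik3cd+/- ovaries (interaction -0.72 ± 0.16, limma adjusted p = 0.277). Cited2 gave 2313, 2099.7 and 2333 in Pik3cd-/- ovaries after PMSG and 2216, 2132 and 1806 in untreated Pik3cd-/- ovaries, against 2842, 3141 and 3719 in Pik3cd+/- ovaries after PMSG and 1852, 1752 and 1907 in untreated Pik3cd+/- ovaries (interaction -0.67 ± 0.17, limma adjusted p = 0.348). In both genes the Pik3cd-/- groups overlapped and the Pik3cd+/- arrays after PMSG were the highest of all. Gadd45a had -0.90 ± 0.29 and Gadd45b -0.96 ± 0.33, Pdk4 -1.03 ± 0.37, Insr -0.41 ± 0.14, Irs2 -0.36 ± 0.16 and Cdkn1b -0.46 ± 0.21, with limma adjusted p between 0.398 and 0.513. Cdkn1a and both Gadd45 genes are also known targets of other stress pathways. Leaving out single arrays gave counts from 6 to 9, and the median was -0.13 without the second untreated Pik3cd-/- array.

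PI3K pathway components themselves were centred near 0. Of 24 tested, 1 (4.17%, Akt1) had a positive interaction at an unadjusted p under 0.05, against 6.16% of all genes. A negative one was found for 2 (8.33%, Pik3r1 and Irs2), against 3.24% of all genes. In the list 14 were above 0, and the median was 0.02. The kinase gene Akt1 had 0.23 ± 0.09 (limma adjusted p = 0.451) and Pik3r1, the regulatory subunit that binds p110 delta, -0.64 ± 0.22 (limma adjusted p = 0.401). Pik3r1 gave 1818, 1852 and 2048 in Pik3cd-/- ovaries after PMSG and 1826, 2519.6 and 1963 in untreated Pik3cd-/- ovaries, against 2338, 2112 and 1919.7 in Pik3cd+/- ovaries after PMSG and 1535, 1372 and 1543 in untreated Pik3cd+/- ovaries. The untreated Pik3cd+/- arrays were the lowest of the 12, and the probe set of Pik3r1 with the highest variance gave -1.63.

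Immediate early genes, which respond to signals without new protein synthesis, lay on the negative side with 1 exception among those with a small p. Of 18 tested, 0 had an adjusted p under 0.05, 6 (33.3%) had a negative interaction at an unadjusted p under 0.05 against 3.24% of all genes, and 1 (5.56%) a positive one, near the 6.16% of all genes. Of the list, 3 were above 0, and the median was -0.33. The list's mean log2 level was 8.06, 7.97 and 7.99 in Pik3cd-/- ovaries after PMSG and 7.68, 7.80 and 7.73 in untreated Pik3cd-/- ovaries, against 8.55, 8.45 and 8.26 in Pik3cd+/- ovaries after PMSG and 7.85, 7.87 and 7.79 in untreated Pik3cd+/- ovaries. PMSG arrays were above the untreated ones in both genotypes, with the wider gap in Pik3cd+/-.

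Ier3, a survival gene induced by growth factors, had 219, 193 and 174 in Pik3cd-/- ovaries after PMSG and 168, 320.1 and 186 in untreated Pik3cd-/- ovaries, against 474, 329 and 269.6 in Pik3cd+/- ovaries after PMSG and 158, 177 and 163 in untreated Pik3cd+/- ovaries (interaction -1.18 ± 0.32, limma adjusted p = 0.359). The second untreated Pik3cd-/- array was high among its group mates. Dusp1, a phosphatase that ends MAP kinase signalling, gave 546, 624 and 536 in Pik3cd-/- ovaries after PMSG and 405, 487 and 444 in untreated Pik3cd-/- ovaries, against 559.8, 998 and 524 in Pik3cd+/- ovaries after PMSG and 324, 301 and 310.4 in untreated Pik3cd+/- ovaries (interaction -0.72 ± 0.27, limma adjusted p = 0.422). Without the second Pik3cd+/- PMSG array, where it read 998, the interaction was -0.43. Junb, Jun, Nr4a2 and Btg2, all transcriptional regulators, had interactions between -0.62 and -0.45, and Jund, the AP-1 gene expressed without stimulation, had 0.37 ± 0.12. Fos (-0.32 ± 0.36) and Egr1 (-0.28 ± 0.31) were smaller than their errors. The count of 6 was 2 without the first Pik3cd+/- PMSG array and 3 without the second Pik3cd-/- PMSG array, and without the third untreated Pik3cd+/- array the median was -0.21.

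The upstream 250 bases of Dusp1 (GRCm38.p6, RefSeq, chr17:26508473-26508722, minus strand) are shown because promoters of many members of this list hold the core of the cAMP response element, the element through which gonadotropin signalling reaches many genes. Capitals mark TGACG on either strand, and where both strands match in overlap the full palindrome is capitalised.
Dusp1: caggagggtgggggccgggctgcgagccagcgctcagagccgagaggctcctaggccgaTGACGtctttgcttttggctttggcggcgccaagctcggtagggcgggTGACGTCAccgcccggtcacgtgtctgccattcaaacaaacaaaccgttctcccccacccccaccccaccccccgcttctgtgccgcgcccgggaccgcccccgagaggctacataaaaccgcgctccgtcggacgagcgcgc
TGACG on either strand was found in 9 of 15 immediate early promoters (60%) and in 26.4% of all 10253. The FoxO letters TGTTTAC were found in 2 of 23 promoters of the FoxO list (8.7%) against 2.09%, and CCAAT in 56.5% of that list, so CCAAT was frequent in a list on the negative side too. Both lists were put together by gene function, so these shares too describe the lists and not the interaction.

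Genes of granulosa and theca function followed the same comparison. FSH-responsive granulosa genes had a median of 0.14 over 21 genes, 14 of them above 0. In this list 1 gene (4.76%), Ccnd2, had a positive interaction at an unadjusted p under 0.05, against 6.16% of all genes. Theca and steroidogenic genes had a median of 0.28 over 14 genes, with 3 (21.4%) positive at an unadjusted p under 0.05 against 6.16% of all genes. The 3 were the hedgehog pathway genes Gli1 (0.48 ± 0.12, limma adjusted p = 0.348) and Ptch1 (0.43 ± 0.15, limma adjusted p = 0.41), and the steroidogenic transcription factor gene Nr5a1 (0.48 ± 0.22, limma adjusted p = 0.514). That median was 0.11 without the second untreated Pik3cd-/- array, 0.17 without the first Pik3cd+/- PMSG array, 0.19 without the third untreated Pik3cd+/- array, and -0.01 with the first 2 of these arrays left out together. The FSH-responsive median was 0.05 without the second untreated Pik3cd-/- array and 0.29 without the third Pik3cd+/- PMSG array, where 5 of its genes had a positive interaction at an unadjusted p under 0.05. The steroidogenic enzymes themselves had wide errors, with Cyp11a1 at 0.26 ± 0.65, Cyp17a1 at 0.70 ± 0.86 and Star at -0.33 ± 0.79. Fshr, the FSH receptor gene, had 443, 401 and 453 in Pik3cd-/- ovaries after PMSG and 106, 74.2 and 122 in untreated Pik3cd-/- ovaries, against 343, 333 and 859.8 in Pik3cd+/- ovaries after PMSG and 194, 183 and 234 in untreated Pik3cd+/- ovaries (interaction 0.88 ± 0.43, limma adjusted p = 0.551). Here 1 Pik3cd+/- array after PMSG was far above the other two.

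LH-responsive and cumulus expansion genes had a median of -0.23 over 11 genes, and of -0.14 without the second Pik3cd-/- PMSG or the third untreated Pik3cd-/- array. Of the 11, 2 (18.2%) were negative at an unadjusted p under 0.05, against 3.24% of all genes. That count ran from 1 to 2 with single arrays left out, and was 4 with no filter on dim genes. It was 0 with the second untreated Pik3cd-/- and the first Pik3cd+/- PMSG array left out together. Ptx3, a matrix protein of the expanding cumulus, had -0.49 ± 0.17 (limma adjusted p = 0.418), and Adamts1, a protease needed for ovulation, had 451, 481 and 504 in Pik3cd-/- ovaries after PMSG and 325, 279 and 249 in untreated Pik3cd-/- ovaries, against 704, 561 and 730.4 in Pik3cd+/- ovaries after PMSG and 248, 233 and 254 in untreated Pik3cd+/- ovaries (interaction -0.66 ± 0.26, limma adjusted p = 0.453). Adamts1 was above its untreated level on every PMSG array of both genotypes. Of a panel of 30 ovarian genes, 29 were tested and 21 had a positive interaction, where 57.7% of all genes lay above 0. A positive interaction at an unadjusted p under 0.05 was found for 4 (13.8%), against 6.16% of all genes. These were Ccnd2, Gdf9, the oestrogen receptor gene Esr2 (0.56 ± 0.22, limma adjusted p = 0.44) and Nr5a1.

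**Figure D3:**
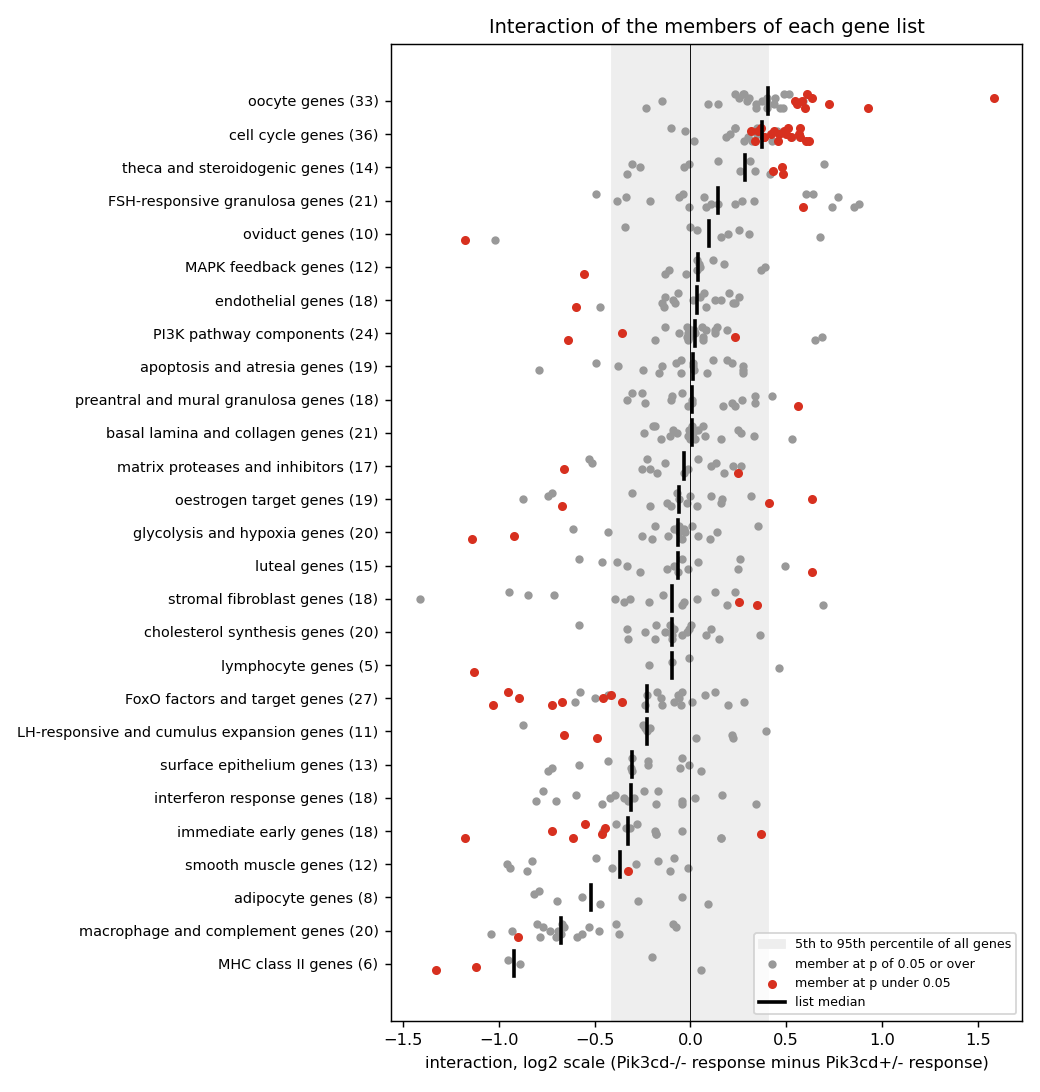
Each point is 1 tested gene of a list and each bar the list's median interaction on the log2 scale, with the number of tested genes in brackets, red for an unadjusted p under 0.05 and grey for others, and a band from the 5th to the 95th percentile of all genes (-0.41 to 0.41). Oocyte and cell cycle genes have medians of 0.41 and 0.38 at one end, and macrophage and MHC class II genes -0.67 and -0.92 at the other.

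Macrophage and MHC class II genes had the most negative medians of the lists, and their levels spread widely within groups. All 20 macrophage and complement genes had an interaction below 0, with a median of -0.67. Of these, 1 (5%) had an unadjusted p under 0.05, where 3.24% of all genes were negative at that level. It was the macrophage marker Aif1 (-0.90 ± 0.37, limma adjusted p = 0.467). Of 6 tested MHC class II genes, 5 were below 0, 2 (33.3%) at an unadjusted p under 0.05 against 3.24% of all genes, and the median was -0.92. H2-Aa, an antigen-presenting chain, had 677, 649 and 636 in Pik3cd-/- ovaries after PMSG and 595, 1513 and 667 in untreated Pik3cd-/- ovaries, against 728, 415 and 284 in Pik3cd+/- ovaries after PMSG and 206, 203 and 260.0 in untreated Pik3cd+/- ovaries (interaction -1.33 ± 0.53, limma adjusted p = 0.458). The second untreated Pik3cd-/- array and the first Pik3cd+/- PMSG array were far above their group mates.

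The mean log2 level of the macrophage list showed the same 2 arrays high. It was 8.06, 7.77 and 7.72 in Pik3cd-/- ovaries after PMSG and 7.56, 8.11 and 7.34 in untreated Pik3cd-/- ovaries, against 8.29, 7.999 and 7.49 in Pik3cd+/- ovaries after PMSG and 7.14, 7.24 and 6.99 in untreated Pik3cd+/- ovaries. The untreated Pik3cd+/- arrays were the lowest of all. Without the second untreated Pik3cd-/- array the medians were -0.45 for the macrophage list and -0.59 for MHC class II, and without the first Pik3cd+/- PMSG array MHC class II also had -0.59. Neither list had a gene at an unadjusted p under 0.05 when 1 of these 2 arrays was left out, and each had 4 without the third Pik3cd+/- PMSG array. The macrophage count moved with other arrays too. It had none without the second Pik3cd-/- PMSG array and 4 without the third untreated Pik3cd-/- array. A model of the 4 groups only gave 6 macrophage and 4 MHC class II genes. The second untreated Pik3cd-/- and the first Pik3cd+/- PMSG array were also left out together, a choice made after their levels were seen. The medians were then -0.24 for the macrophage list and -0.26 for MHC class II, and none of either list had an unadjusted p under 0.05.

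With the same 2 arrays left out, the median was 0.30 for cell cycle genes (10 of 36 at an unadjusted p under 0.05), 0.45 for oocyte genes (6 of 33), -0.16 for FoxO genes (3 of 27) and -0.21 for immediate early genes (3 of 18, negative). The 4 lists kept their side of 0 there. The part of macrophage content in the values of other lists was not tested, since the macrophage median stayed below 0 with these 2 arrays left out.

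**Figure D4:**
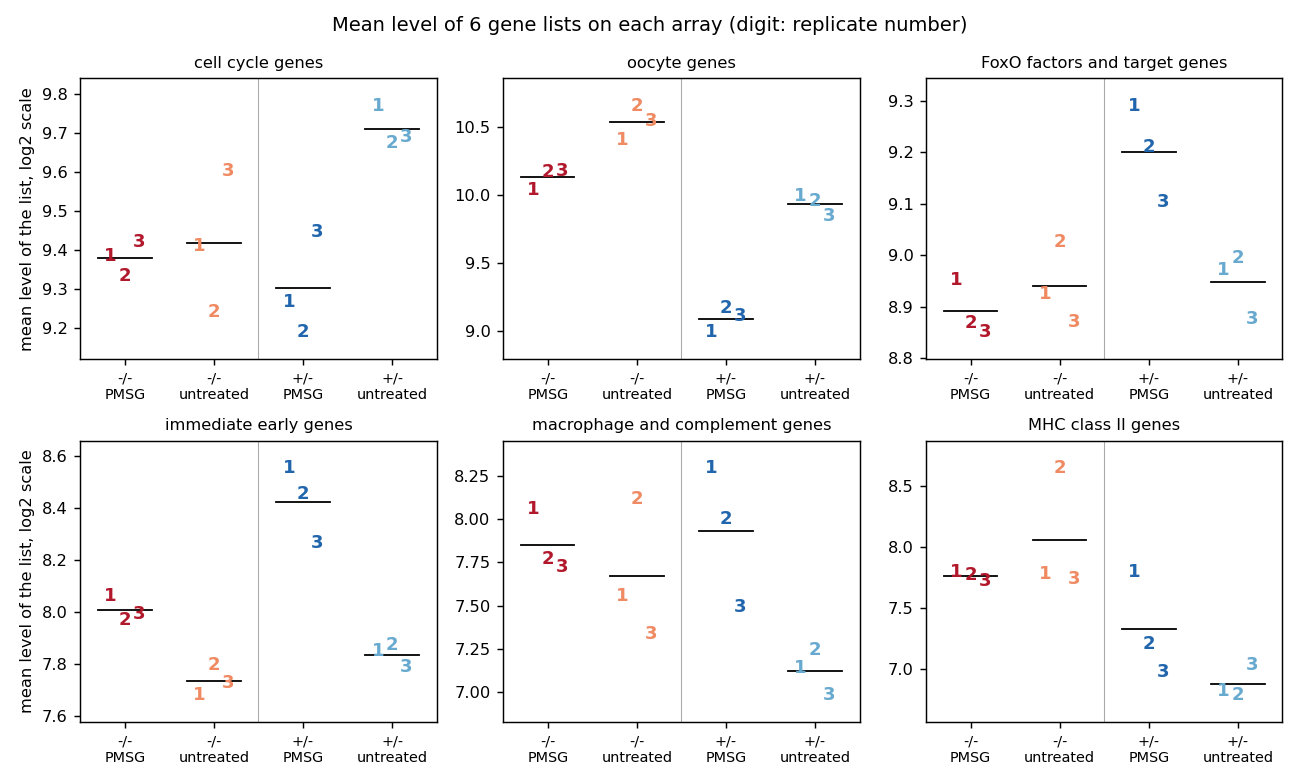
Mean log2 level of 6 lists on each of the 12 arrays, with a digit for the replicate number of each array, a bar at the group mean, y axes that do not start at 0, and the groups in the order Pik3cd-/- after PMSG, Pik3cd-/- untreated, Pik3cd+/- after PMSG and Pik3cd+/- untreated. Cell cycle genes are highest on the 3 untreated Pik3cd+/- arrays (9.67 to 9.77), and the macrophage list spreads between 7.34 and 8.11 within the untreated Pik3cd-/- group.

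Of the remaining lists, smooth muscle genes had all 12 members below 0, with a median of -0.37. At an unadjusted p under 0.05 there was 1 (8.33%), the smooth muscle actin-binding gene Lmod1 (-0.32 ± 0.14), where 3.24% of all genes were negative at that level. That count ran from 0 to 3 with single arrays left out and was 6 in a model of the 4 groups only. Interferon response genes had a median of -0.31 and surface epithelium genes -0.30, with no member at an unadjusted p under 0.05 in either. The interferon median was -0.63 without the first Pik3cd-/- PMSG array and -0.09 without the second. Without the first, 7 interferon genes were negative at an unadjusted p under 0.05, so the absence of such members rested on that array. The surface epithelium median was -0.01 without the first Pik3cd+/- PMSG array, and 1 of its genes was negative at that level without the third. Glycolysis and hypoxia genes had a median of -0.06, with 2 of 20 (10%) negative at an unadjusted p under 0.05 against 3.24% of all genes. These 2 were the vasodilator peptide gene Adm (-1.14 ± 0.31, limma adjusted p = 0.359) and Ndrg1 (-0.92 ± 0.31, limma adjusted p = 0.403). Adm gave 119, 105 and 86.4 in Pik3cd-/- ovaries after PMSG and 187, 235 and 209 in untreated Pik3cd-/- ovaries, against 149, 111 and 98.9 in Pik3cd+/- ovaries after PMSG and 86.4, 87.0 and 149 in untreated Pik3cd+/- ovaries. The untreated Pik3cd-/- arrays were the highest.

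Adipocyte genes had a median of -0.52 over 8 genes with no member at an unadjusted p under 0.05, and single arrays left out moved it between -0.79 and -0.27. Of blood genes 2 were tested, with a median of 0.25. Cholesterol synthesis genes had -0.10 over 20 genes, of which none had an unadjusted p under 0.05, and 0.07 without the third Pik3cd+/- PMSG array, where 14 genes lay above 0 in place of 5. Medians between -0.10 and 0.10 were also found for preantral and mural granulosa (0.01), luteal (-0.07), oestrogen target (-0.06), apoptosis and atresia (0.01), matrix protease (-0.04), basal lamina and collagen (0.01), MAPK feedback (0.04), lymphocyte (-0.10), endothelial (0.03), stromal fibroblast (-0.09) and oviduct genes (0.10). Positive at an unadjusted p under 0.05 were 2 of 18 stromal fibroblast (11.1%) and 2 of 19 oestrogen target genes (10.5%), against 6.16% of all genes. Negative at that level were 1 of 5 lymphocyte (20%) and 1 of 10 oviduct genes (10%), against 3.24% of all genes. The other lists of this group had at most 1 gene in either direction. Single arrays left out moved the oviduct median between -0.33 (without the second untreated Pik3cd+/- array) and 0.40 (without the first Pik3cd+/- PMSG array). They moved the luteal median between -0.16 and 0.15, the lymphocyte one between -0.22 and 0.03 and the endothelial one between -0.11 and 0.13. A filter at the 70th percentile left 1 lymphocyte gene, at -1.13, and gave -0.38 for oviduct genes.

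**Figure D5:**
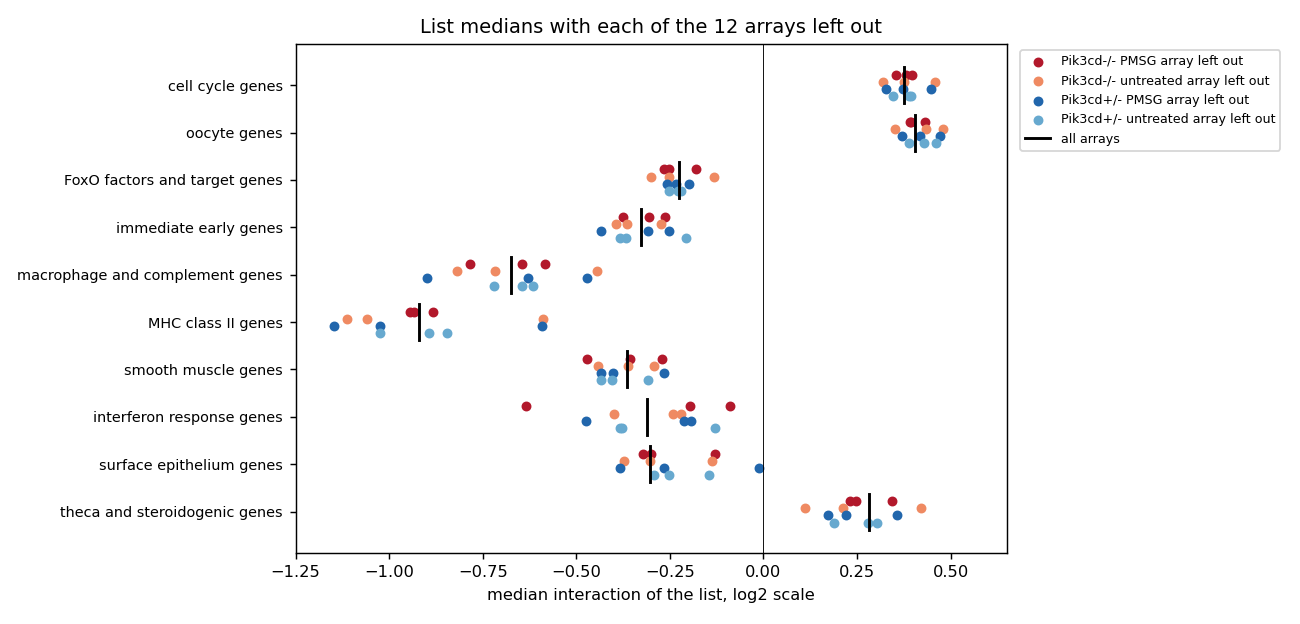
Median interaction of 10 lists on the log2 scale with each of the 12 arrays left out in turn, coloured by the group of the array, and a bar for all arrays. Cell cycle medians run between 0.32 and 0.46 and oocyte medians between 0.35 and 0.48, whereas MHC class II medians run between -1.15 and -0.59.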

How the data were processed

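Total RNA of mouse ovaries was hybridised to Affymetrix arrays, 1 per sample, 18 in 6 groups of 3 biological replicates. The authors deposited 1 intensity, not log-transformed, for each probe set of each array, and the submitters' processing notes name MAS5 without a version; other normalization steps are not given in the sources used here. The arrays' number limits the precision. Nothing in the labels says whether replicates were single animals or pools.

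Values were taken as log2(signal + 8.58), the pseudocount being the 10th percentile of all values. From 45101 probe sets, 64 controls, 9160 that carry no gene symbol and 932 that carry more than 1 were removed. The remaining 34945 represent 18193 genes, each by its brightest probe set. The filter kept 12711 genes whose mean exceeded 5.87, the median of all log2 values, in 1 group or more. Symbols come from the platform annotation and can be old. Using limma 3.58.1 under R 4.3.3, a model of 6 group means was fitted, in which the E2 groups add degrees of freedom and enter no contrast (eBayes with trend, 12 residual and 3.67 prior degrees of freedom). The interaction was tested two-sided with Benjamini-Hochberg adjustment over all tested genes at an adjusted p of 0.05. The fit was also run on simulated data with independent noise. That simulation held no array that deviated as a whole, so it does not cover the array effects described here.

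The comparison, the gene lists and the rule for naming genes were chosen with earlier results of these data known. Named genes were the 12 with the smallest p in each direction, the 6 largest in each direction at an unadjusted p under 0.05, up to 3 members with the smallest p of each list, a panel of ovarian genes and Pik3cd; provisional names were left out. Further list members given with values, and the members nearest 0, were chosen after their values were seen. Lists are described by counts and medians only. Alternatives were pseudocounts of 1 and 64, quantile normalization, the 4 groups only, omission of each array in turn, the replicate number as a block, eBayes with no trend, a filter at the 70th percentile or none, and the most variable probe set per gene.

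Same-numbered arrays of different groups deviated from their group means with correlations between -0.35 and 0.34, over 0.1 in 9 of 18 pairs. All 3 pairs of the 2 PMSG groups were over 0.1 (0.25 to 0.30), whereas all 3 of the PMSG and untreated Pik3cd+/- groups were negative (-0.21 to -0.13). The labels state no shared litter or day. Since the pairs did not deviate together over the 4 groups of the interaction, the numbers were not taken as pairs for it, and the block is given as an alternative.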

Additional observations from a re-analysis of the deposited data

How the results depend on the processing

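The count of 0 called genes became 2 with a pseudocount of 64 (Asb4 and Ddhd1, adjusted p = 0.0455 by limma) and 3 with quantile normalization (Asb4, Ddhd1 and Lrp11, adjusted p = 0.0466 by limma). Lrp11 ran up to an adjusted p of 0.45 over the alternatives. With each array left out it ran from 0 to 4, the 4 (Asb4, Ddhd1, Ntn4 and Pawr) without the third Pik3cd+/- PMSG array and 1 (Ddhd1) without the first Pik3cd-/- PMSG array. It stayed 0 in the other alternatives. With single arrays left out, the number of genes at an unadjusted p under 0.05 ran from 795 (without the first untreated Pik3cd+/- array) to 1846 (without the third Pik3cd+/- PMSG array), that of positive ones from 492 to 1308 (without the same 2 arrays) and that of negative ones from 259 (without the second Pik3cd-/- PMSG array) to 544 (without the second untreated Pik3cd-/- array). The positive count was 512 without the second Pik3cd+/- PMSG array. The causes were not tested. With the replicate number as a block, 0 genes were called and 1115 had an unadjusted p under 0.05, and no call changed. Of 1859 values of 85 genes under the alternatives, 12 in 7 genes had the opposite sign: Ctsl had -1.44, Gatad2a -0.35 and Xaf1 3.08 with the probe set of highest variance, and Inhba had -0.52 and Cyp11a1 -0.071 with the second untreated Pik3cd-/- and the first Pik3cd+/- PMSG array left out together. Leaving out single arrays gave values from -0.076 to 0.70 for Cyp11a1, from -0.010 to 0.28 for Foxo1, from -0.30 to 1.39 for Inhba and from -1.04 to 0.61 for Star. None of these 7 genes had an adjusted p under 0.05 in any alternative. Dim genes are limited by signal over background. Over all tested genes, with 3 arrays per group, an interaction near the median standard error of 0.16 could not be told from 0. Larger ones were not called either, such as Asb4 at -1.56 ± 0.25 (limma adjusted p = 0.0711).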
